A study of Lactuca sativa var. capitata with 10 samples.

Results

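Of the 38293 genes counted in lettuce roots, 7 genes of the light reactions of photosynthesis were examined pool by pool. They encode 3 subunits of photosystem I, 3 proteins of photosystem II and the leaf-type ferredoxin-NADP reductase. They were taken by locus tag, and are the genes that the study mapped to the photosynthesis pathway after calling them higher expressed in chitin-treated roots. Other photosynthesis genes, such as those of antenna proteins, were not analysed here. They were thus chosen by the fold change and adjusted p-value between the treatments in these same libraries, and for these genes that difference is given below as a description. Their calls in that contrast are listed once and support nothing. Values just outside the study's threshold were not analysed here. The counts name genes only by locus tag. The product names come from the study's list of NCBI genes. It was paired with locus tags through the fold changes in the study's own tables and, for most, the chromosome. No annotation was at hand to settle this pairing. The log2-fold changes that the study printed for these 7 genes are all smaller than those given below and stand in another order. The cause of this difference was not tested. In a RefSeq gene table of the assembly Lsat_Salinas_v11, all 7 NCBI genes were found, and each lay on the chromosome given in its locus tag. The chromosome had already served to pair most of them, so this agreement is no independent check.

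The plants were butterhead lettuce (Lactuca sativa var. capitata) of the cultivar 'Alexandria', wild type (labelled wt), grown in a greenhouse whose light and temperature were not strictly controlled. Seedlings with 3 to 4 leaves were moved to peat-based potting soil without addition (PS) or with 2 g of crab chitin per L (PS+CH). Roots were washed and frozen 72 h post-transplanting (hpt), and RNA was sequenced from 5 pools of 5 plants per treatment. Total counts ranged from 17624520 to 18545790 between pools, and the mean correlation of a pool with the other pools of its treatment from 0.968 to 0.979 (log2 CPM over tested genes). Expression is given as CPM, the usual library-scaled unit of edgeR, here with TMM factors. At this depth 3 counts corresponded to 0.157 to 0.173 CPM, a floor that covers counting error only. The vacuolar aquaporin TIP1-1 (LSAT_6X43221), abundant in roots of many plants, had 70 to 177 counts in PS and 156 to 233 in PS+CH. Its means of 6.17 CPM in PS and 11.5 CPM in PS+CH were under the median of 15.3 CPM over tested genes. It was itself higher in PS+CH, with a log2-fold change of 0.89 ± 0.23 (SE) and an adjusted p = 0.0235 by edgeR's quasi-likelihood test. No other marker of root or green tissue was examined by name.

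In chloroplasts, photosystem II takes electrons from water and photosystem I passes them on to ferredoxin, from which ferredoxin-NADP reductase makes NADPH. Both photosystems are assembled from subunits encoded in the plastid and in the nucleus, and the nuclear genes are typically switched on together by light in green tissue. Roots hold mostly non-green plastids, although roots reached by light can green, and they use a ferredoxin-NADP reductase isozyme of their own that runs in the opposite direction for nitrite assimilation.

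All 7 genes were weakly expressed. Their reads summed to 2102 over the 10 pools, 470 in PS and 1632 in PS+CH. Mean levels ran from 0.750 CPM for PSB28 to 3.33 CPM for the W protein, while the median over the 21936 tested genes was 15.3 CPM. Each of the genes had its highest level in PS+CH replicate 2, and its highest level among the control pools in PS replicate 4. The lowest PS+CH pool was always replicate 4. The same 5 pools held the 5 highest values of every gene, namely PS+CH replicates 1, 2, 3 and 5 and PS replicate 4. In 1 control pool, photosystem and reductase transcripts thus stood at the height of most chitin pools, and in 1 chitin pool at that of most control pools.

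**Figure D1:**
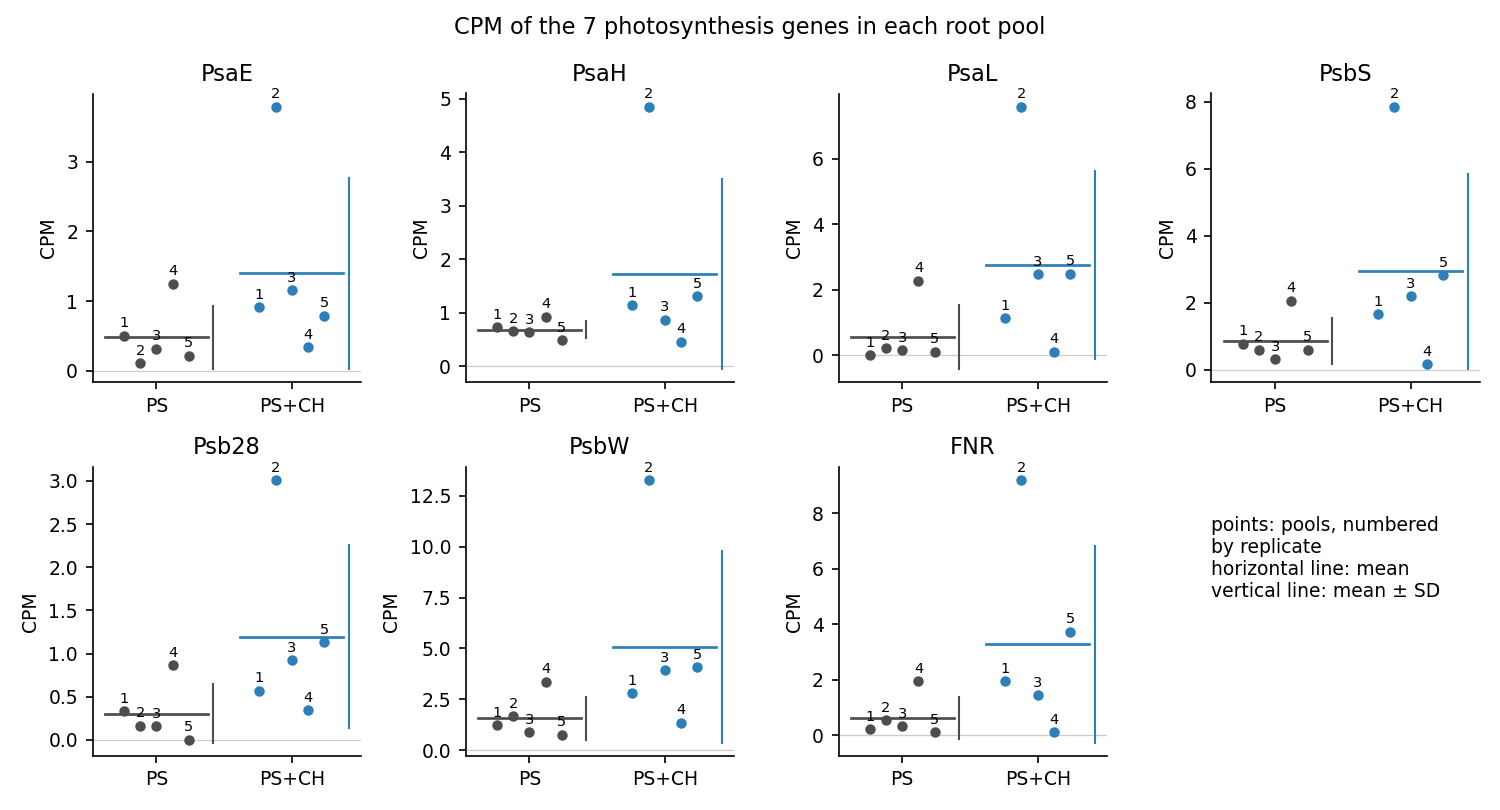
CPM of each gene (y axis, own scale per panel) in the 5 PS and 5 PS+CH pools, numbered by replicate, with the mean as a horizontal line and mean ± SD as a vertical line. PS+CH replicate 2 is the highest point in all 7 panels, and PS replicate 4 lies far above the other PS pools in all panels but that of PsaH.

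Subunit IV A of photosystem I (PsaE, LSAT_9X12001) sits on the stromal side and helps ferredoxin to dock. It had 9, 2, 6, 23 and 4 counts in PS replicates 1 to 5 and 16, 68, 20, 6 and 14 in PS+CH replicates 1 to 5. Levels were 0.478 ± 0.454 CPM in PS and 1.40 ± 1.37 CPM in PS+CH (SD, n = 5 each), a log2-fold change of 1.54 ± 0.68 (SE). It was 0.74 without PS+CH replicate 2 and 2.27 without PS replicate 4. The treatments overlapped, since only PS+CH replicate 2 lay above PS replicate 4. The letter A of its name marks 1 of several like genes, and how reads that match more than 1 gene were counted is not given in the sources used here, so its level is uncertain.

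Subunit VI of photosystem I (PsaH, LSAT_1X35241) takes part in docking the light-harvesting antenna of photosystem II to photosystem I. Its counts were 13, 12, 12, 17 and 9 in PS and 20, 87, 15, 8 and 23 in PS+CH, again in the order of replicates 1 to 5. PsaH was the steadiest of the 7 genes in control roots, where its highest pool was 1.88-fold above its lowest. It had 0.683 ± 0.158 CPM in PS and 1.72 ± 1.78 CPM in PS+CH (SD, n = 5 each). The log2-fold change of 1.33 ± 0.55 (SE) was the smallest of the 7, and it was 0.46 without PS+CH replicate 2.

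Subunit XI of photosystem I (PsaL, LSAT_8X98481) is the neighbour of PsaH in the complex, yet it varied far more. It had 0, 4, 3, 42 and 2 counts in the 5 PS pools and 20, 136, 43, 2 and 44 in the 5 PS+CH pools. In PS replicates 1, 3 and 5 and in PS+CH replicate 4 it was at or under the floor of 3 counts. Levels were 0.553 ± 0.969 CPM in PS and 2.76 ± 2.87 CPM in PS+CH (SD, n = 5 each). The log2-fold change of 2.31 ± 1.01 (SE) was 4.43 without PS replicate 4 and 1.48 without PS+CH replicate 2.

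The 22 kDa protein of photosystem II (PsbS, LSAT_6X35480) senses the acidity of the thylakoid lumen and switches the antenna to heat dissipation in strong light. It had 14, 11, 6, 38 and 11 counts in the PS pools and 29, 141, 38, 3 and 50 in the PS+CH pools. PS+CH replicate 4 was its lowest pool of all 10, with 0.170 CPM. Levels were 0.870 ± 0.687 CPM in PS and 2.94 ± 2.92 CPM in PS+CH (SD, n = 5 each), with a log2-fold change of 1.75 ± 0.72 (SE), which was 0.97 without PS+CH replicate 2 and 2.35 without PS replicate 4.

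PSB28 (Psb28, LSAT_5X181161) joins photosystem II during its assembly and is not a part of the finished complex. It had the fewest reads of the 7, with 6, 3, 3, 16 and 0 counts in PS and 10, 54, 16, 6 and 20 in PS+CH. Levels were 0.304 ± 0.337 CPM in PS and 1.20 ± 1.06 CPM in PS+CH (SD, n = 5 each). It was too low for the filter on counts, and a fit of all genes gave a log2-fold change of 1.95 ± 0.73 (SE), with 1.27 when PS+CH replicate 2 was left out and 2.83 when PS replicate 4 was.

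The reaction center W protein (PsbW, LSAT_5X186721), a small membrane protein that holds photosystem II and its antenna together in supercomplexes, had the most reads. It had 22, 31, 17, 62 and 14 counts in PS and 49, 238, 68, 24 and 72 in PS+CH, so that no pool was near the floor. PS+CH replicate 4 lay between the control pools, while replicates 2, 3 and 5 lay above all of them. Levels were 1.58 ± 1.06 CPM in PS and 5.08 ± 4.70 CPM in PS+CH (SD, n = 5 each), with a log2-fold change of 1.68 ± 0.58 (SE). Leaving out PS+CH replicate 2 gave 0.94 and leaving out PS replicate 4 gave 2.15.

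The leaf-type ferredoxin-NADP reductase (FNR, LSAT_3X73300) makes NADPH at the end of the electron transport chain. It had 4, 10, 6, 36 and 2 counts in the PS pools and 34, 165, 25, 2 and 66 in the PS+CH pools. Within PS+CH the highest pool was 80.9-fold above the lowest, whose 2 counts are under the floor. PS replicate 4, at 1.95 CPM, was above PS+CH replicates 3 and 4 and beside PS+CH replicate 1, at 1.94 CPM. Levels were 0.629 ± 0.758 CPM in PS and 3.29 ± 3.55 CPM in PS+CH (SD, n = 5 each), with a log2-fold change of 2.37 ± 0.88 (SE). It ranged from 1.52 without PS+CH replicate 2 to 3.43 without PS replicate 4.

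The 7 log2-fold changes had a median of 1.75, against 0.00 over all tested genes, a difference that the choice of the genes fixed. Without PS+CH replicate 2 the median was 0.97, and without PS replicate 4 it was 2.35. Genes were called DEGs by edgeR's quasi-likelihood test (Benjamini-Hochberg adjusted p-value under 0.05) where they also changed by 1 or more on the log2 scale. Of the tested genes 3.32% passed, 0.387% as higher and 2.93% as lower in PS+CH, and 1.05% reached this size upward whatever their p-value. Of the 6 photosynthesis genes tested, 0 were DEGs by edgeR and 6 had an unadjusted p-value under 0.05, as did 8129 of the 21936 tested genes. DESeq2 called 3 of 7, with 862 of 22491 genes called in all. Without PS replicate 4, edgeR called 4 of the 6 genes it could test and 793 of 22115 in all. Without PS+CH replicate 4 it called 3 of 7 and 550 of 22172 in all. Without PS replicate 4 and PS+CH replicate 2, which left 4 of the genes above the filter, it called 1 of them and 473 of 21914 in all. All PS+CH pools were above all PS pools in 0 of the 7 genes and in 7.05% of tested genes, and below them in 7.02% of tested genes. Since the same contrast chose the genes, nothing is read from these counts. In bulk roots, fewer cells that express these genes and less RNA per cell cannot be told apart.

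Summed over the 7 genes, PS replicates 1 to 5 had 3.78, 3.96, 2.78, 12.7 and 2.29 CPM. PS+CH replicates 1 to 5 had 10.1, 49.6, 13.0, 2.90 and 16.4 CPM. The highest pool was 5.56-fold above the lowest in PS and 17.1-fold in PS+CH. The ratio of the treatment means was 3.60-fold, a measure unlike a span of 5 values. On the log2 scale the sum was 2.05 ± 0.96 in PS and 3.65 ± 1.47 in PS+CH (mean and SD, n = 5 each). PS replicate 4 had 4.38 times the summed level of PS+CH replicate 4. Neither library was unusual in depth, with 17940400 and 18545790 total counts, and PS+CH replicate 2 had 18540854. Over all tested genes, PS+CH replicate 2 had the lowest mean correlation with the pools of its treatment, 0.968. PS replicates 3 and 1 were nearly as low with the pools of theirs, at 0.968 and 0.969. Leaving out PS+CH replicate 2 and PS replicate 4 together, an alternative chosen after seeing the data, the ratio of mean sums was 3.31 and the median log2-fold change of the 7 genes was 1.57.

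The rise of PS+CH replicate 2 above its treatment was even across the genes. Its level was 3.95-fold (PsbW) to 5.44-fold (FNR) above the median of the other PS+CH pools. The rise of PS replicate 4 was uneven. It was 1.44-fold above the median of the other PS pools for PsaH, 3.18-fold for PsbW, 3.45-fold for PsbS, 4.69-fold for PsaE and 7.28-fold for FNR. PsaL had 42 counts there against 0 to 4 in the other PS pools. The fall of PS+CH replicate 4 was uneven as well. Relative to the mean of PS+CH in log2 CPM, FNR, PsaL and PsbS lay at -3.09, -2.93 and -2.78, while Psb28, PsaH, PsaE and PsbW lay between -1.42 and -1.21. In this pool FNR, PsaL and PsbS had 2, 2 and 3 counts, at or under the floor. Their deviations thus depend on the prior count and are uncertain. Psb28, PsaE and PsaH had only 6, 6 and 8 counts there.

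**Figure D2:**
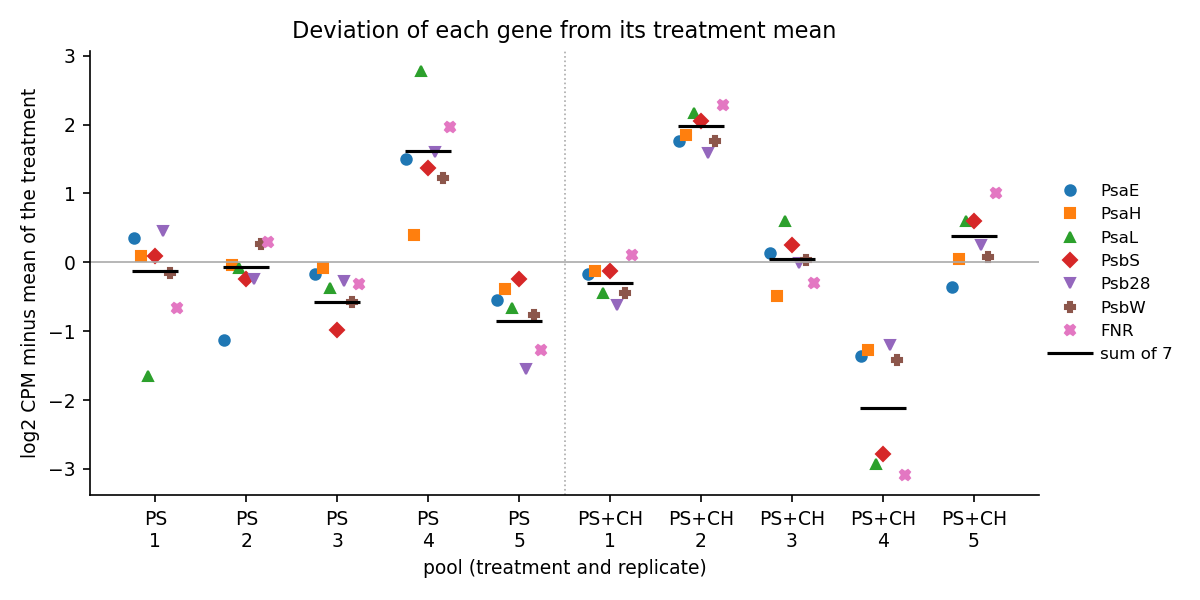
Deviation of each gene's log2 CPM (prior count 2) from the mean of its treatment (y axis) in each pool (x axis), with the summed level of the 7 genes as a black bar. The symbols lie close together in PS+CH replicate 2, between 1.58 and 2.28, and spread from 0.40 (PsaH) to 2.78 (PsaL) in PS replicate 4.

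The balance among the subunits was examined as each gene's share of the reads of the 7 genes in a pool, which does not depend on the scaling of the libraries. Shares of different genes also reflect transcript length, so that only shares of the same gene are compared between pools. The 3 photosystem I genes together took 24.7% to 39.6% of the reads. Their mean share was 33.5 ± 5.57% (SD, n = 5) in PS and 31.7 ± 2.42% (SD, n = 5) in PS+CH, a difference smaller than the spread between pools. The exact 95% binomial intervals (Clopper-Pearson) of all 10 pools held the values from 29.7% to 33.6%. The 3 photosystem II genes took 48.7% to 64.7%, and here, too, the intervals of the 10 pools had values in common (50.1% to 52.0%). The low pools rest on 42 to 73 reads, so their intervals are wide and values in common cannot show a constant division. The photosystem II share was 61.8%, 61.6%, 49.1%, 49.6% and 59.5% in PS replicates 1 to 5. In PS+CH replicates 1 to 5 it was 49.4%, 48.7%, 54.2%, 64.7% and 49.1%. It was highest in PS+CH replicate 4 and PS replicates 1, 2 and 5, all with a low summed level. PS replicate 3, also low, had 49.1%. FNR reads enter both shares through the sum. Whether the division shifted was not tested.

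Shares of single photosystem I genes, again of the reads of all 7 genes, differed between pools. PsaH took 19.1%, 16.4%, 22.6%, 7.26% and 21.4% of the reads in PS replicates 1 to 5 and 11.2%, 9.79%, 6.67%, 15.7% and 7.96% in PS+CH replicates 1 to 5. Its share was thus lower in each of the 5 pools with the most photosynthesis reads than in any other. The share and this order of pools use the same sum of reads, so a gene that varies little loses share where the sum is high. The Clopper-Pearson intervals of PS replicate 3, picked for the highest share (12.3% to 36.2%), and PS replicate 4 (4.29% to 11.4%) did not overlap. PsaL moved the other way, with 0%, 5.48%, 5.66%, 17.9% and 4.76% in PS and 11.2%, 15.3%, 19.1%, 3.92% and 15.2% in PS+CH. In PS replicate 1 it had 0 of 68 reads, which allows a share of up to 4.41% by the limit of 3 counts and up to 5.28% by the Clopper-Pearson interval, and in PS replicate 4 the interval was 13.3% to 23.5%. The shares of both genes in PS replicate 4 were inside the range of PS+CH replicates 1, 2, 3 and 5, and those in PS+CH replicate 4 were nearer to those of the other PS pools. PsaE took 2.74% to 13.2%, with intervals that had values in common over all 10 pools.

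Among the other genes, PsbW took from 24.9% of the reads in PS+CH replicate 5 to 47.1% in PS+CH replicate 4. The Clopper-Pearson intervals of these pools did not overlap (up to 30.3% in the former and from 32.9% in the latter). PsbW had the largest share in each of the 10 pools, but this rank also reflects transcript length and is not read further. FNR ranged from 3.92% in PS+CH replicate 4 to 22.8% in PS+CH replicate 5, with intervals of 0.478% to 13.5% and 18.1% to 28.1%. Psb28, at 0% to 11.8%, and PsbS, at 5.88% to 26.2%, had intervals with values common to all pools. Reads without molecular identifiers are not independent molecules, and these intervals cover counting error only. In the low pools they rest on 42 to 73 reads of the 7 genes, and in PS+CH replicate 2 on 889.

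**Figure D3:**
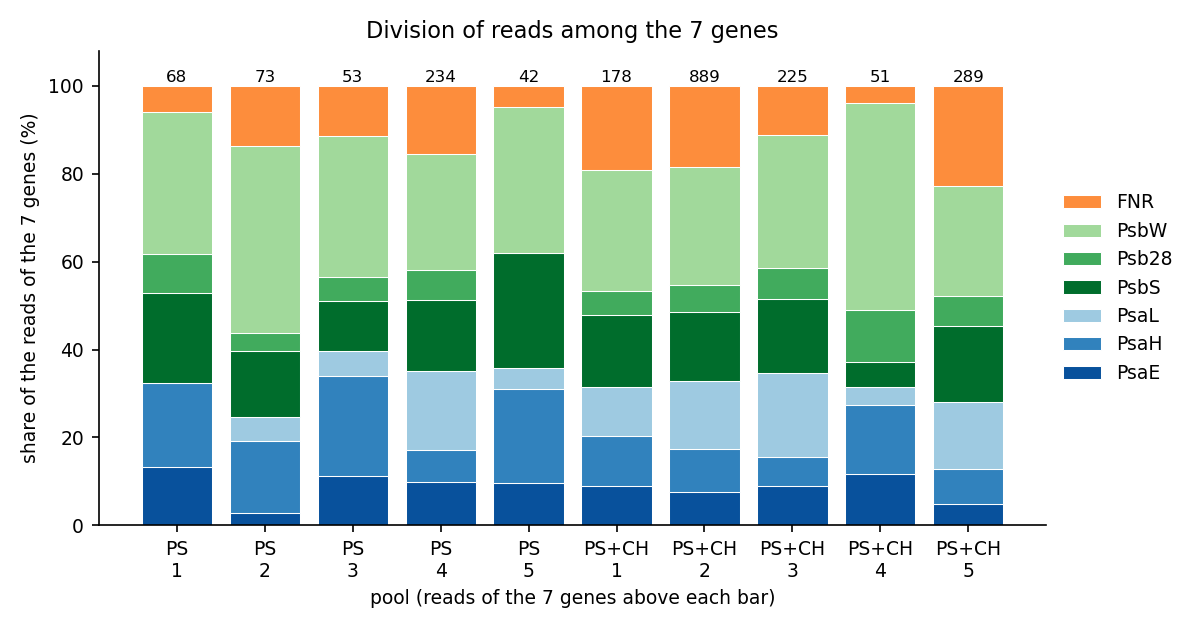
Share of the reads of the 7 genes (y axis, percent) taken by each gene in each pool (x axis), with the number of reads above the bar; blue tones are photosystem I, green tones photosystem II and orange FNR. The blue part keeps a height of 24.7% to 39.6%, while within it PsaL widens and PsaH narrows in PS replicate 4 and in PS+CH replicates 1, 2, 3 and 5.

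Co-variation was measured on log2 CPM after subtracting the mean of each treatment. This removes the offset between the treatments, but not the peak in PS+CH replicate 2, which also enters the fold changes that chose the genes. Without this pool the log2-fold changes of PsaE, PsaH, PsbS and PsbW were under 1. The correlations are therefore a description of these 10 pools, with no test. The 21 pairs had Pearson's r of 0.74 (PsaH with PsaL) to 0.93 (PsaL with FNR), with a median of 0.86. Spearman's rho ran from 0.54 (PsaE with FNR) to 0.93 (PsbW with FNR), with a median of 0.77. By rank the loosest pairs were PsaE with FNR, PsaL and PsbW, and PsaH with PsaL, from 0.54 to 0.61. The pools share their libraries across the genes, so that anything that alters a whole library enters each pair. Of the counts behind them, 8 in PS and 3 in PS+CH were at 3 or lower.

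Without PS+CH replicate 2 the median r was 0.80. Without PS+CH replicates 2 and 4, the 2 pools farthest from the median in the summed level, r lay between 0.50 and 0.89 with a median of 0.75. Without PS+CH replicate 2 and PS replicate 4 it lay between 0.39 and 0.94 with a median of 0.71. Every pair stayed positive in the latter pair of settings. The 3 pairs within photosystem I had r of 0.74, 0.78 and 0.81, and the 3 pairs within photosystem II 0.80, 0.91 and 0.91. The 15 other pairs had a median of 0.86, and differences between these sets were not tested. Within 1 treatment no test was run, and the median r was 0.79 over the 5 PS pools and 0.94 over the 5 PS+CH pools. FNR, which is in neither photosystem, was among the closest partners of PsaL, PsbS and PsbW, with r of 0.93, 0.92 and 0.93.

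**Figure D4:**
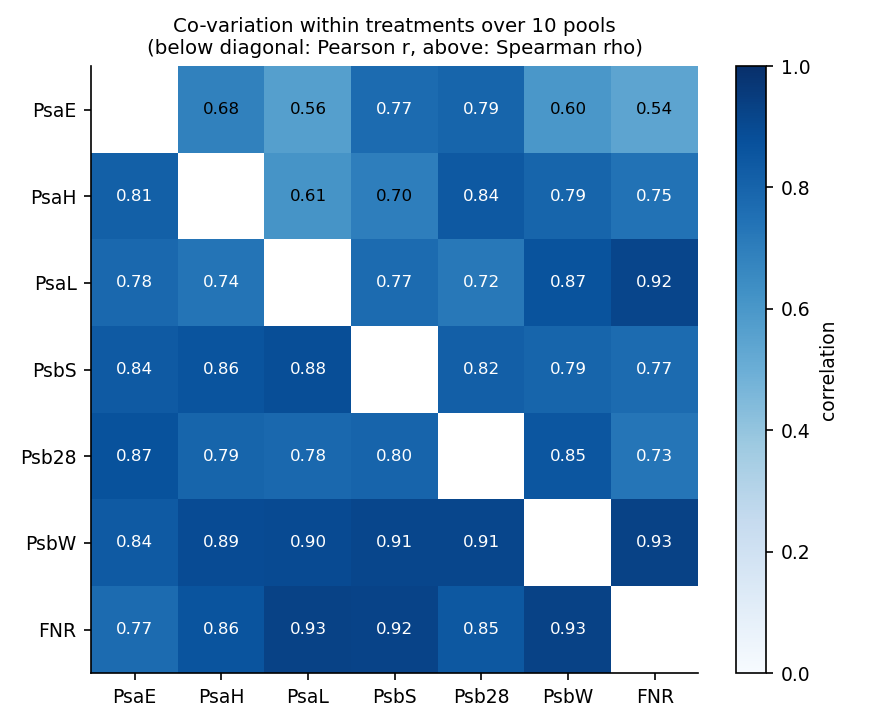
Pearson's r (below the diagonal) and Spearman's rho (above it) of each pair of the 7 genes over the 10 pools, from log2 CPM after subtraction of the treatment means; darker blue is higher. The weakest rank correlations, 0.54 to 0.61, lie in the row of PsaE and between PsaH and PsaL.

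The spread of these genes between pools of 1 treatment was large for their level. The biological coefficient of variation estimated by edgeR was 0.557 (PsaH) to 1.12 (PsaL), against a median of 0.155 over tested genes. For a comparison at like expression, among the 3861 other tested genes with a mean of 0.750 to 3.33 CPM, the median SD of log2 CPM within treatments was 0.41. The 7 genes had 0.84 (PsaH), 0.99 (PsbW), 1.07 (PsaE), 1.10 (Psb28), 1.38 (PsbS), 1.66 (FNR) and 1.78 (PsaL). The value of PsaH was reached by 8.05% of the genes of that level and the value of PsaL by 1.19%. The peak in PS+CH replicate 2 enters both this spread and the fold changes that chose the 7 genes. The other genes of that level were not chosen in this way. The spread is therefore a description of these pools, with no test.

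To see which other transcripts followed the same order of pools, each tested gene was compared with the summed level of the 7 genes, as deviations of log2 CPM from the treatment means. This likeness, too, is given as a description without a test. Over the 21930 genes outside the 7, r had a median of -0.01, and 5% of genes lay above 0.54. At least 0.90 was reached by 36 genes (0.164%), and -0.90 or lower by 9. Each of the 7 genes had an r of 0.86 (PsaE) to 0.96 (PsbW) with the sum of the other 6. The lowest of these values was reached by 61 other genes (0.278%).

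**Figure D5:**
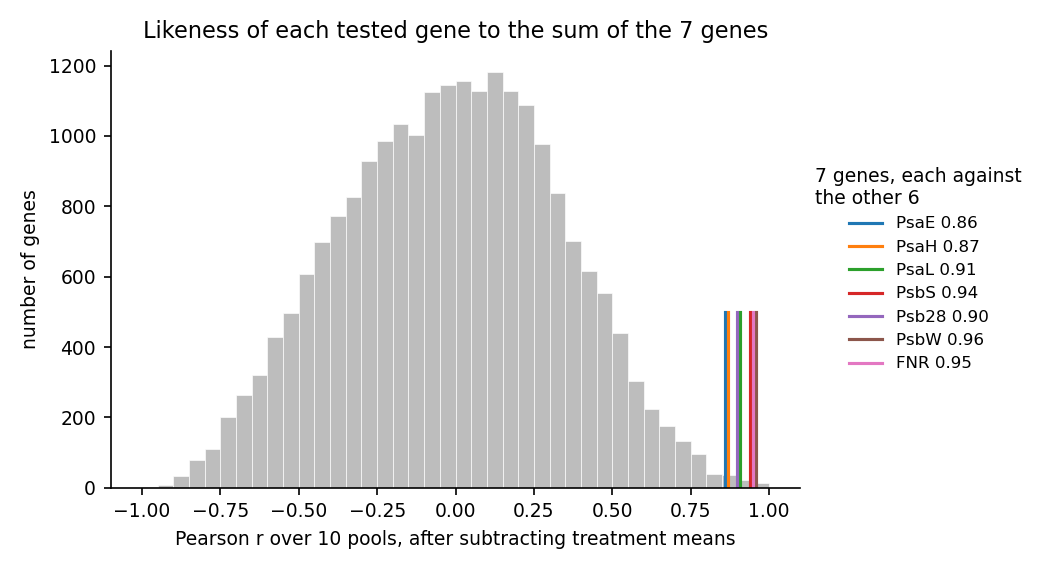
Number of tested genes outside the 7 (y axis) by Pearson's r with the summed level of the 7 genes over the 10 pools, after subtraction of the treatment means (x axis). Coloured lines mark the r of each of the 7 genes with the other 6, from 0.86 to 0.96, at the far right of a distribution centred near 0.

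The 10 genes most like the sum had r of 0.96 to 0.99, and 0.88 to 0.97 without PS+CH replicates 2 and 4. All 10 were highest in PS+CH replicate 2, highest among the control pools in PS replicate 4 and lowest among the chitin pools in PS+CH replicate 4. No table at hand gives their products. The most alike, LSAT_0X5321, had 54, 58, 44, 136 and 49 counts in PS and 60, 239, 75, 26 and 95 in PS+CH. Its levels were 3.70 ± 2.08 CPM in PS and 5.58 ± 4.56 CPM in PS+CH (SD, n = 5 each), and its log2-fold change of 0.59 ± 0.50 (SE) did not pass the edgeR test (adjusted p = 0.406). Next came LSAT_4X28820, with 2, 2, 0, 18 and 0 counts in PS and 15, 63, 18, 1 and 15 in PS+CH. Among the 10, 3 have locus tags on chromosome 4 within the same run of numbers, from LSAT_4X28820 on. The log2-fold changes of the 10 ran from 0.59 to 3.41, and 1 of them was a DEG.

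From the genes that the study's primer list gives with a locus tag, the 8 of flavonoid synthesis, a chlorophyll gene and the aquaporin were also set beside the sum, a choice made with their values known. The stress and hormone genes of that list were not analysed here. Magnesium dechelatase SGRL (LSAT_6X97181), of a family that removes magnesium from chlorophyll, had 0 to 5 counts in PS and 1, 74, 10, 0 and 21 in PS+CH. Its order of pools was like that of the photosynthesis genes in PS+CH, with r = 0.80 and rho = 0.83 over the 10 pools. The value of r fell to 0.41 without PS+CH replicates 2 and 4. In PS replicate 4 it had 4 counts, inside the range of the other control pools. The aquaporin TIP1-1 had r = -0.46 and rho = -0.54, and was lowest in PS replicate 4 with 70 counts.

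Of the 8 flavonoid genes, 6 shared the peak in PS+CH replicate 2. MYB111 (LSAT_9X181), a transcription factor that activates flavonol synthesis in Arabidopsis, and chalcone synthase J (LSAT_2X42860) had 0 counts in every PS pool, replicate 4 included, where the photosynthesis genes stood at 12.7 CPM. In PS replicate 4 the other chalcone synthase gene (LSAT_2X76880) had 0 counts as well, and dihydroflavonol 4-reductase (LSAT_2X77261) had 1. The chalcone isomerase-like protein 2 (LSAT_8X11480) had 14 there, inside its control range of 2 to 17, against 197 in PS+CH replicate 2. The flavonoid 3'-monooxygenase (LSAT_5X23101) had 37 in PS replicate 4, inside its control range of 24 to 111, against 1034 in PS+CH replicate 2. In PS+CH replicate 4 these 6 genes had 0 to 24 counts. Over the 10 pools, the Pearson r of these 6 genes with the sum was 0.62 to 0.80, and it was -0.11 to 0.35 without PS+CH replicates 2 and 4. Chalcone synthase 3 (LSAT_4X147220) went otherwise, with 5 to 13 counts in PS, 3, 1, 4, 3 and 5 in PS+CH and r = -0.15. The transcription factor bHLH42 (LSAT_5X190001), named a flavonoid regulator in lettuce, had r = 0.76 and rho = 0.89, and r = 0.88 without these pools. It had no more than 10 counts in any pool, and its highest control pool was PS replicate 4 with 6.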

How the data were processed

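Strand-specific mRNA reads from 10 root pools were checked by the authors with FastQC 0.11.9, aligned by STAR 2.7.10 with the 'Salinas' genome (v7) and counted per gene with featureCounts 2.0.1; the handling of reads matching several genes is not given in the sources used here. The deposited values are raw counts per gene and pool, without normalization. Total counts were between 17624520 and 18545790. Treatments and replicate numbers came from the sample titles; whether pools came from separate benches or days is not stated, and p-values measure only the spread between these pools.

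The analysis here used edgeR 4.0.16 (R 4.3.3): filterByExpr (minimum count 10) kept 21936 genes, TMM factors scaled the libraries, and the quasi-likelihood test with Benjamini-Hochberg adjustment compared PS+CH with PS. A gene left out by the filter took its fold change from an unfiltered fit. Correlations used log2 CPM with a prior count of 2. The edgeR calls and the ranking of genes by correlation were tested on simulated data. The edgeR simulation changed only genes with mean counts above those of PsaE and Psb28.

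Genes named are the 7 photosynthesis genes, the 10 most like their sum (2 printed, since none has a product name here) and 10 genes (flavonoid, chlorophyll, aquaporin) picked by hand from the study's primer list. An exact permutation test planned for pairs of genes is not reported, since the contrast that chose them shares a pool's peak with the correlations. Genes and lists were chosen with earlier results of these data known. Alternatives were DESeq2 1.42.0, other scalings, filters and prior counts, replicate blocks and leaving out pools. Lists by product name (antenna proteins, Rubisco, tissue markers) had been planned and were left out, because no table used here links locus tags to products. Sequences were not analysed here.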

Additional observations from a re-analysis of the deposited data

Results flagged for a closer look

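In each treatment, the values of the 5 pools were examined for a pool lying far from the others, by the gap to its neighbour relative to the range (Dixon's test at the 95% level). Of 32 sets of 5 values (levels and read shares of the 7 genes, summed level and total counts), 11 held such a pool. The nominal rate of 5% is no measure of chance here. The sets share their libraries and are not independent, and the peak in PS+CH replicate 2 also enters the fold changes that chose the genes. PS replicate 4 was far above the other PS pools for PsaL (2.28 CPM), PsbS (2.06 CPM), FNR (1.95 CPM) and the summed level (12.7 CPM). PS+CH replicate 2 was far above the other PS+CH pools for PsaE (3.79 CPM), PsaH (4.85 CPM), PsbW (13.3 CPM) and the summed level (49.6 CPM). In read shares, PS+CH replicate 4 stood apart for PsbS (5.88%), Psb28 (11.8%) and PsbW (47.1%), all from 51 reads of the 7 genes. Total counts held no such pool in either treatment.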

How the results depend on the processing

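All log2-fold changes of the 7 genes stayed positive under the 18 alternatives run. With each pool left out in turn, their median lay between 0.97 and 2.35, that of PsaH between 0.46 and 1.57 and that of PsaL between 1.48 and 4.43, the difference in the log2 of the summed level between 1.11 and 2.13, and the difference in photosystem I share between -4.03 and -0.29 percentage points. The count of DEGs over all genes, 728, lay between 375 (without PS replicate 3) and 887, with 461 without PS+CH replicate 1, and was 473 without PS replicate 4 and PS+CH replicate 2, an alternative chosen after seeing the data. The median r of the 21 pairs, 0.86, lay between 0.80 and 0.90 with each pool left out. It was 0.80 with a prior count of 0.5, 0.75 without the 2 pools farthest from the median, 0.77 as Spearman's rho and 0.71 without PS replicate 4 and PS+CH replicate 2. The cause of these shifts was not tested.

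Pools of both treatments carry the replicate numbers 1 to 5, and the deviations of same-numbered pools correlated at -0.01 to 0.48 over all genes, with 2 of 5 control pools closest to their own number. These values do not settle whether the number marks a pairing, and it was not taken as one in the main fit. With the replicate block, 902 genes were DEGs, 0 of the 7 genes among them, and the median log2-fold change of the 7 was 1.53 (PsaH 0.99, PsaL 2.68). By edgeR's quasi-likelihood test, 6199 genes had an adjusted p-value under 0.05 with this block, against 4065 without it. A replicate block by the numbers in the sample descriptions, over the 8 pools that share one, gave 0 DEGs by edgeR, with 5696 genes at an unadjusted p-value under 0.05, and a median of 1.97. At 42 to 73 reads of the 7 genes in the low pools, differences in read share of several percentage points were not detectable.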
